A study of Homo sapiens with 17 samples.

Results

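AluY elements are the youngest large group of Alu repeats in the human genome. They were taken here as every repeat row of the locus count tables with the class and family SINE/Alu and a subfamily name that begins with AluY, which gave 142431 loci of 24 subfamilies, out of 4748242 repeat loci of 1261 subfamilies. The counts came from IMR90 ER:RAS cells, a human fetal lung fibroblast line with a RAS gene fused to an estrogen receptor domain, so that 4-hydroxytamoxifen (4OHT) switches RAS on and drives the cells into oncogene-induced senescence. All 17 libraries carried that construct and an siRNA, and RNA was taken about a week after induction. The groups compared were DMSO-treated cells with non-targeting siRNA (DMSO siNT, n = 5), 4OHT-treated cells with non-targeting siRNA (4OHT siNT, n = 6) and 4OHT-treated cells with siRNA against SMARCA4 (4OHT siSMARCA4, n = 6). SMARCA4 encodes BRG1, an ATPase of SWI/SNF chromatin remodelling complexes. No DMSO library with siSMARCA4 was analysed here, so an effect of the knockdown outside senescence has no value. Every group holds libraries with the number 2 and libraries with the number 4, which the titles put after siNT and within the names siSMARCA4_2 and siSMARCA4_4, and libraries are named by this number and a tag, such as 4OHT siNT 2-1VM. The labels do not say whether the numbers stand for different siRNAs or what the tag letters V and VM mean. The letters are not balanced, since all 6 4OHT siNT libraries are VM while 3 of 6 4OHT siSMARCA4 and 2 of 5 DMSO siNT libraries are V. Nothing in the labels says that libraries of a group came from separate cultures, so p-values measure the spread between these libraries, which may be technical.

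An Alu element is a primate-specific short interspersed element made of paired arms that descend from the RNA of the signal recognition particle. It carries an internal promoter for RNA polymerase III with an A box and a B box in the left arm, and it has no protein of its own, so it moves only with the proteins of LINE-1. AluJ is the oldest of the Alu families, AluS is younger, and AluY is the youngest, with AluYa5 and AluYb8 accounting for most of the Alu insertions known to differ between people. Most Alu RNA in a polyadenylated RNA library is not made by RNA polymerase III, because Alu copies lie in introns and terminal exons and are read as part of the host transcript.

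Of the 116762 AluY loci of 280 bases or longer, 50.4% held the A box letters GGCTCACGC and 51.6% the B box letters GATCGAGAC, which do not overlap each other. These were counted on the strand given to each locus by a set of Alu motifs that includes the boxes themselves. Among the 531893 AluS loci of that length the shares were 24.7% and 3.69%, and 22.8% held GTTCGAGAC, the AluS form of the B box, which 0.844% of the AluY loci held. The median number of CpG was 13 in AluY and 7 in AluS. Over loci of any length, it was 22 in AluYa5 and in AluYb8, 21 in AluYb9 and 19 in AluYd8, 13 in plain AluY and as few as 2 in AluYa8. AluYm1 stood apart from the others in the A box, whose exact letters were in 2.63% of its loci against 45.3% of the loci named plain AluY, over loci of any length. Loci with counts resembled the rest, since the 7155 AluY loci of 280 bases or longer with at least 10 counts held the A box in 51.5% and the B box in 55.0%, with a median of 14 CpG.

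AluY loci made up 3.00% of the repeat loci and 3.64% of the repeat counts. They took 518835 counts over the 17 libraries, between 20440 and 47182 in each. Counts were seen at 45398 of the 142431 loci (31.9%), against 28.7% of the 674215 AluS loci and 26.1% of the 312325 AluJ loci, and 8108 AluY loci reached 10 counts. The 10 loci with the most counts held 5.72% of all AluY counts and the top 100 held 20.2%. The top 100 loci of AluS held 8.56% of the AluS counts, and those of AluJ 16.7% of the AluJ counts. The subfamily named plain AluY, with 77599 loci, took 55.1% of the counts. AluYk2 took 14.9%, AluYk3 6.59%, AluYm1 5.03% and AluYb8 3.39%.

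Counts per locus differed by place. Introns held 84871 AluY loci (59.6%) and 73.3% of the counts, exons held 4227 loci (2.97%) and 8.76% of the counts, and the 53333 loci outside genes (37.4%) held 17.9%. Per locus this came to 10.8 counts in exons, 4.48 in introns and 1.74 outside genes. Within introns, 34819 loci lay in the sense of their gene and took 7.91 counts per locus, while 42192 loci lay antisense and took 1.46. The 9989 loci over 50000 bp from any gene (7.01% of loci) held 0.972% of the counts, or 0.505 per locus. AluS gave the same order, with 8.52 counts per sense intronic locus and 1.15 per antisense one. The ratio of sense to antisense intronic AluY counts was 4.35 ± 0.537 (SD, n = 5) in DMSO siNT, 4.31 ± 0.308 (n = 6) in 4OHT siNT and 4.69 ± 0.599 (n = 6) in 4OHT siSMARCA4, with overlapping ranges.

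**Figure D1:**
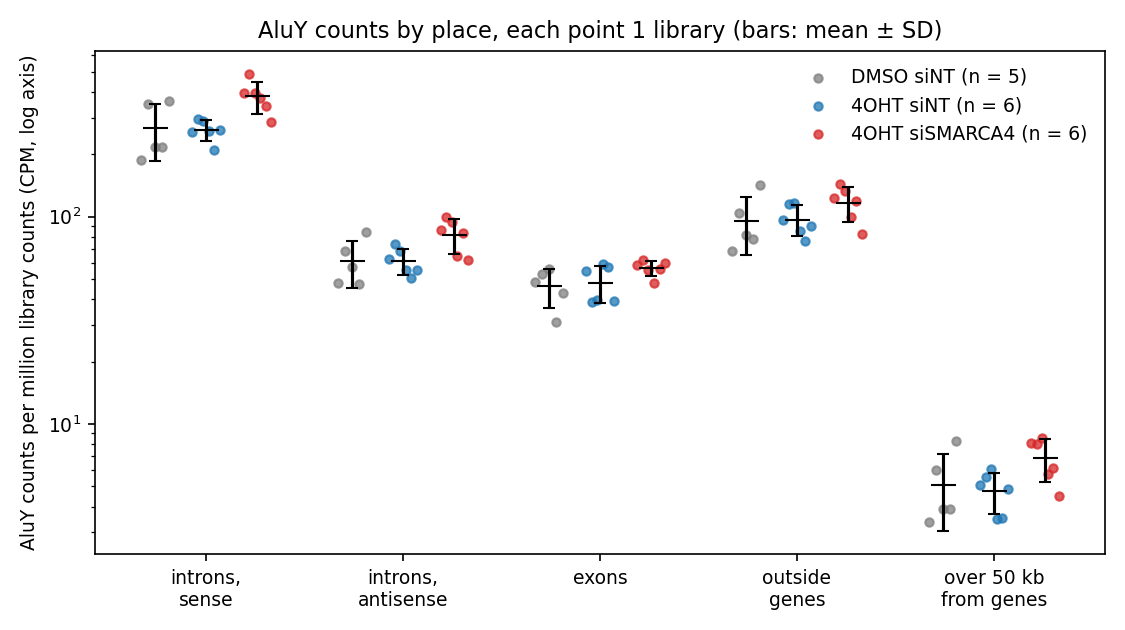
AluY counts per 1000000 library counts (CPM, log axis) at sense and antisense intronic loci, exons, loci outside genes and loci over 50000 bp from any gene, with each library as a point and bars for mean ± SD. Sense introns lie highest in every group, at 262 CPM on average in 4OHT siNT and 380 in 4OHT siSMARCA4, and loci far from genes lie lowest.

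The length of a member mattered as well. Loci of 280 bases or more but under 350, the length of a whole Alu, were 81.7% of the members and held 89.2% of the counts. The 5630 pieces under 100 bases held 1.16% of the counts. The 374 intervals of 350 bases or longer, which reach up to 1992 bases, took 10.8 counts per locus.

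Young AluY copies are close to identical, and the read counter shares a read that fits several loci among them. Each oriented locus of at least 100 bases was therefore divided into 100-base windows and searched for an exact copy of the window in another AluY locus. Of 5234171 windows, 11.1% were shared. The share was 76.7% in AluYa5, 76.6% in AluYb8, 72.0% in AluYb9 and 54.5% in AluYd8, but 6.98% in plain AluY and 4.43% in AluYh9. At 1990 loci (1.47%) the whole element had an identical copy elsewhere, among them 380 AluYa5 and 206 AluYb8 loci. None of the windows of the intronic AluY copies in TXNRD1 (chr12:104328475-104328780) and FNDC3B (chr3:172393827-172394133) and of the AluYm1 copy in RPL23A (chr17:28721964-28722263), described with the loci, was shared. All 44 windows of an AluYb8 copy in an intron of CHRNE were (chr17:4925240-4925557), a locus chosen after its values were seen because 1 library filled it. AluYb8 and AluYa5 had the largest shares of loci with counts, 55.1% and 43.2% against 32.3% in plain AluY, but AluYd8 (31.2%) and AluYg6 (25.8%, with 42.2% of windows shared) lay below plain AluY. Where windows are shared, a locus with counts need not be a locus with RNA.

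**Figure D2:**
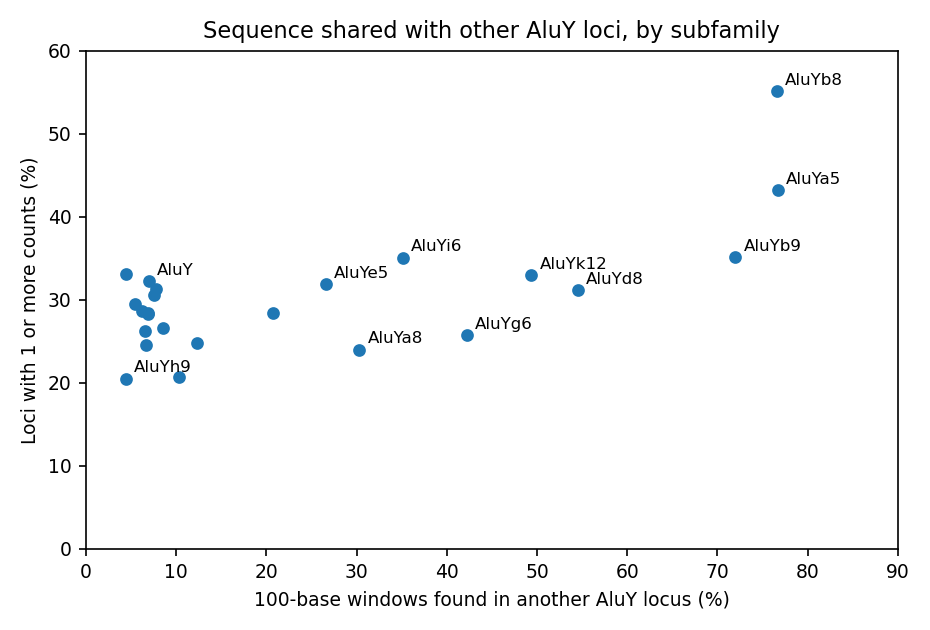
Share of 100-base windows found in another AluY locus (x axis, %) against the share of loci with 1 or more counts (y axis, %), with each AluY subfamily as a point. AluYb8, AluYa5 and AluYb9 lie at the right with 72.0% to 76.7% of windows shared, and AluYb8 is highest with 55.1% of its loci counted.

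The 17 libraries held between 39109479 and 68978119 expected counts. SMARCA4 itself averaged, in counts per 1000000 (CPM) scaled by TMM factors, 268 ± 13.2 CPM in 4OHT siNT and 88.0 ± 22.8 in 4OHT siSMARCA4, with no overlap (log2 fold change −1.61, SE 0.13, adjusted p = 5.14e-07 by edgeR's quasi-likelihood test with Benjamini-Hochberg adjustment). Of 8 fibroblast markers VIM did not pass in either comparison (group means 5717 to 5982 CPM), while 6 fell with siSMARCA4 (median log2 fold change −1.09) and 6 fell and 1 rose with 4OHT (median −0.79), among them COL1A1 with group means of 10766 CPM in DMSO siNT, 6291 in 4OHT siNT and 2291 in 4OHT siSMARCA4. Of all 19473 genes tested, 24.2% were called with siSMARCA4 and 54.4% with 4OHT, in either direction, and all marker counts are to be read against these shares. Of the other lineages, both epithelial markers tested fell with siSMARCA4 and 1 with 4OHT (EPCAM, group means 0.213 to 0.869 CPM). The 2 endothelial markers tested rose with 4OHT and 1 of them fell with siSMARCA4 (PECAM1, group means 0.0144 CPM in DMSO siNT, 0.935 in 4OHT siNT and 0.341 in 4OHT siSMARCA4). The 1 leukocyte marker tested, CD14, did not pass (group means 0.112 to 0.204 CPM). The part of these shifts in the AluY values was not tested. Libraries also differed in counts at sparse repeats, meaning repeats other than Alu and satellites that lie over 50000 bp from any gene and hold at most 20 counts in all. These took 45.8 ± 9.38 CPM (29.1 to 56.9) in 4OHT siNT, 97.1 ± 43.0 (59.7 to 174) in 4OHT siSMARCA4, and 64.5 ± 31.2 (40.6 to 102) in DMSO siNT, where 2-2V and 4-3VM stood apart at 94.8 and 102. The siSMARCA4 and siNT ranges in 4OHT did not overlap.

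The first comparison, siSMARCA4 against siNT in 4OHT, addressed AluY RNA in senescent cells with less SMARCA4. AluY counts were higher with siSMARCA4. The pooled AluY level was 430, 487, 500, 511, 556 and 567 CPM in the 4OHT siNT libraries, and 531, 639, 655, 729, 741 and 868 CPM in the 4OHT siSMARCA4 libraries. The groups overlapped through a single siSMARCA4 library, 4-3V at 531 CPM. The means were 508 ± 49.6 and 694 ± 114 CPM (SD, n = 6 each), a ratio of 1.36 (exact 2-sided permutation test, p = 0.00649, adjusted p = 0.0476 over 22 pooled tests). In bulk RNA, fewer cells of a type and less RNA per cell cannot be told apart, and the same holds for more.

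The pooled difference lay mostly in introns, where most AluY counts lie in any case. Introns held 71.4% of AluY counts in 4OHT siNT and 74.9% in 4OHT siSMARCA4, with overlapping ranges. Intronic AluY rose from 364 ± 40.7 to 521 ± 91.5 CPM, a ratio of 1.43, and the sense part of it from 262 ± 29.9 to 380 ± 67.7, a ratio of 1.45 (n = 6 each, exact permutation tests, adjusted p = 0.0476 for both). Antisense intronic loci were at 61.0 ± 8.71 and 81.7 ± 15.4 CPM (adjusted p = 0.131, exact permutation test, n = 6 each). Exonic loci were at 48.0 ± 9.89 and 56.4 ± 4.93 CPM and loci outside genes at 96.7 ± 16.4 and 117 ± 22.2 CPM (adjusted p = 0.320 for both, exact permutation test, n = 6 each). Loci over 50000 bp from genes were at 4.76 ± 1.07 and 6.84 ± 1.62 CPM (adjusted p = 0.152, exact permutation test, n = 6 each). Whether the change in introns differs from that in exons was not tested.

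The rise was not particular to AluY. AluS went from 2517 to 3330 CPM and AluJ from 1111 to 1474 CPM, with no overlap between the groups for either. The ratio of AluY to AluS was 0.202 ± 0.0118 in siNT and 0.208 ± 0.0191 in siSMARCA4 (n = 6 each, exact permutation test, adjusted p = 0.948), and that of AluY to AluJ was 0.458 and 0.471 (adjusted p = 0.993, exact permutation test, n = 6 each). The share of AluY among all repeat counts was 3.52% and 4.01% (adjusted p = 0.357, exact permutation test, n = 6 each).

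**Figure D3:**
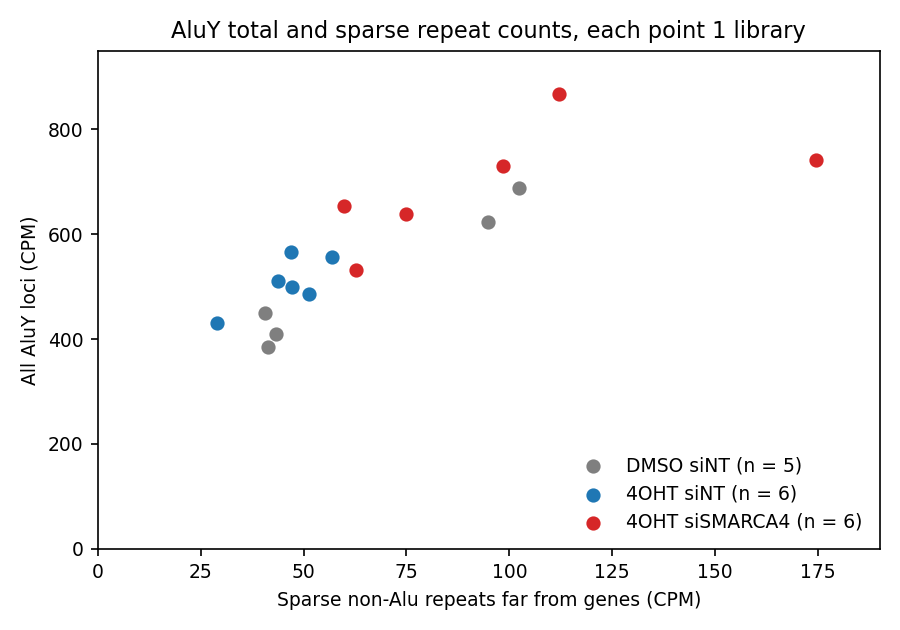
Counts at sparse repeats far from genes (x axis, CPM) against the pooled level of all AluY loci (y axis, CPM), with each library as a point. The 4OHT siSMARCA4 libraries reach furthest on both axes, up to 868 CPM of AluY, and DMSO siNT 2-2V and 4-3VM lie near them at 623 and 688 CPM of AluY.

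Across the 24 AluY subfamilies, all of which were tested, 7 rose with siSMARCA4 and 0 fell at an adjusted p under 0.05, and 14 had an unadjusted p under 0.05. Over all 1026 repeat subfamilies tested, 19.4% rose. The median log2 fold change was 0.41 over the AluY subfamilies (range 0.09 to 0.76, all positive) and 0.25 over all repeat subfamilies. AluS gave 13 of 17 subfamilies higher with a median of 0.37, and AluJ gave 4 of 4 with a median of 0.36. Leaving out 4OHT siNT 4-2VM or 4OHT siSMARCA4 2-3V brought the AluY count to 4. With the level of sparse repeats as a covariate no subfamily passed (0 at an unadjusted p under 0.05), and the median came to −0.01. With scaling factors computed from the repeat rows alone, which take up a shift that all repeats share, 0 passed (4 at an unadjusted p under 0.05) and the median was 0.18.

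Of the subfamilies that rose, AluYj4, AluYk4, AluYh7 and AluYg6 had groups that did not overlap. How often groups do not overlap among all repeat subfamilies, or their rows by place, was not counted. AluYj4 was at 6.12, 6.79 and 7.48 CPM (lowest, median and highest; here and for single subfamilies and loci, CPM are scaled by TMM factors) in 4OHT siNT and at 8.31, 9.92 and 13.2 in 4OHT siSMARCA4. Every siSMARCA4 library was above every siNT library, and the log2 fold change was 0.60 (SE 0.16, adjusted p = 0.0136 by edgeR with Benjamini-Hochberg adjustment). AluYk4 was at 4.97 to 7.53 CPM against 7.57 to 11.7, so the groups only just parted. Its log2 fold change was 0.49 (SE 0.15, adjusted p = 0.0251 by edgeR), and it no longer passed without 4OHT siNT 4-2VM (0.42, adjusted p = 0.0654), 4OHT siNT 4-3VM (0.47, 0.0548) or 4OHT siSMARCA4 2-3V (0.42, 0.0648). AluYh7 was at 3.02, 3.62 and 4.28 CPM against 4.34, 5.27 and 5.87 (log2 fold change 0.52, SE 0.13, adjusted p = 0.0118 in edgeR). AluYg6, with much of its sequence shared among copies (42.2% of windows), was at 1.31, 1.70 and 1.98 CPM against 2.29, 2.51 and 3.04 (log2 fold change 0.63, SE 0.16, adjusted p = 0.0131 in edgeR). Of the AluYh7 counts, 25.1% came from a 47-base piece at chr14:103694405-103694451.

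The other 3 subfamilies that rose overlapped between the groups. Plain AluY went from 290 ± 22.2 to 387 ± 64.6 CPM (SD, n = 6 each) with a log2 fold change of 0.42 (SE 0.14, adjusted p = 0.037 in edgeR). Its call was the least stable, and it was lost without any of 7 of the 12 libraries, with adjusted p up to 0.0965 without 4OHT siSMARCA4 2-3V, where the fold was 0.34. Those 7 were 4OHT siNT 2-1VM, 4-1VM, 4-2VM and 4-3VM and 4OHT siSMARCA4 2-1VM, 2-3V and 2-3VM. AluYa5 went from 11.9 ± 1.54 to 18.1 ± 4.04 CPM (0.61, SE 0.17, adjusted p = 0.019 in edgeR), and missed the threshold without 4OHT siNT 4-2VM (0.55, adjusted p = 0.0504) or 4OHT siSMARCA4 2-3V (0.52, adjusted p = 0.0513). AluYc went from 13.9 ± 1.63 to 19.9 ± 3.42 CPM (0.52, SE 0.13, adjusted p = 0.0126 in edgeR). Among those that did not pass, AluYb8 was at 14.3 ± 1.63 and 20.9 ± 5.38 CPM. The rise was read against the label number in the 12 libraries with 4OHT, where the median of 23 subfamilies was 0.49 with number 2 and 0.30 with number 4. No subfamily differed between the numbers (0 of 23, smallest edgeR adjusted p 0.773, 2 at an unadjusted p under 0.05), although the fold was larger with number 2 in 19 of 23.

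**Figure D4:**
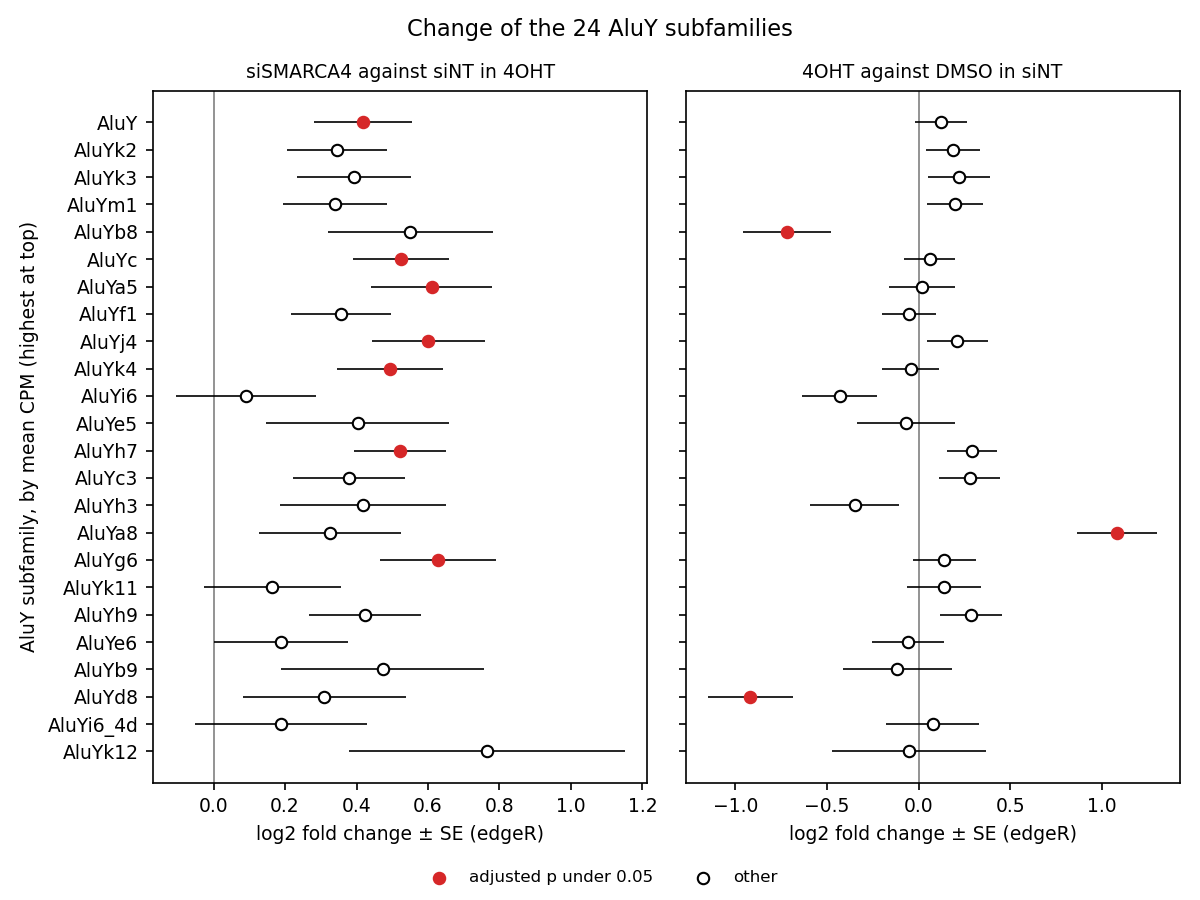
Log2 fold change ± SE of the 24 AluY subfamilies for siSMARCA4 against siNT in 4OHT (left) and for 4OHT against DMSO in siNT (right), ordered by mean CPM, with filled points for an adjusted p under 0.05. All points of the left panel lie to the right of 0, between 0.09 and 0.76, though bars such as that of AluYi6 cross it, and in the right panel AluYa8 stands out at 1.08 and AluYb8 and AluYd8 at −0.72 and −0.92.

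When each subfamily was divided by place, 62 AluY rows were tested and 9 rose with siSMARCA4, against 14.3% of all 2230 rows. In introns, 7 of 23 rows rose and the median log2 fold change was 0.49, beside 163 of 871 and 0.32 over the introns of all repeats. In exons 0 of 18 passed by edgeR (3 at an unadjusted p under 0.05), with a median of 0.35, beside 21 of 654 and 0.09 over the exons of all repeats. Outside genes 2 of 21 rose with a median of 0.27, beside 134 of 705 and 0.38 over all repeats there. Intronic AluYh7 (0.56, SE 0.14, adjusted p = 0.0146 in edgeR) and AluYj4 (0.66, SE 0.18, adjusted p = 0.0213 in edgeR) had groups that did not overlap. AluYa5, AluYc, AluYf1, AluYk3 and plain AluY also rose in introns, by 0.50 to 0.69 except plain AluY at 0.49. The rows outside genes were AluYb8 (0.72, SE 0.22, adjusted p = 0.0354 in edgeR) and AluYk4 (0.75, SE 0.20, adjusted p = 0.019 in edgeR). Several of these calls lay near the threshold. AluYb8 outside genes, plain AluY in introns and AluYk3 in introns were each lost without any of 4OHT siNT 2-1VM, 4-1VM, 4-2VM and 4-3VM and 4OHT siSMARCA4 2-1VM, 2-3V and 2-3VM, with values of 0.63 to 0.73, 0.41 to 0.50 and 0.41 to 0.51 and adjusted p up to 0.116. AluYb8 was also lost without 4OHT siSMARCA4 4-2VM (0.66), plain AluY without 4OHT siSMARCA4 4-2V (0.51), and AluYk3 without that library (0.52) or 4OHT siNT 2-3VM (0.53). AluYj4 in introns missed it without 4OHT siNT 4-2VM (0.63, adjusted p = 0.0503) or 4OHT siSMARCA4 2-3V (0.56, adjusted p = 0.0562), and AluYk4 outside genes without 4OHT siNT 4-2VM (0.72, adjusted p = 0.0502). In all, leaving out 4OHT siNT 4-2VM left 4 of the 9 calls and leaving out 4OHT siSMARCA4 2-3V left 5, and with the sparse repeat covariate or repeat-only scaling 0 passed (6 and 8 at an unadjusted p under 0.05).

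At single loci, 556 AluY loci of 21 subfamilies had enough counts to be tested, 388 in introns, 76 in exons and 92 outside genes, and together they held 39.8% of the AluY counts. With siSMARCA4, 24 rose and 7 fell, against 4.36% higher and 1.8% lower of all 13026 repeat loci tested. Introns held 24 of the 31 called loci, of which 20 rose. The count was the least firm in this comparison, since leaving out 1 library gave 10 calls without 4OHT siSMARCA4 2-3V and 38 without 4OHT siSMARCA4 4-3V. It was 12 to 14 without 4OHT siNT 2-1VM or 4-2VM or 4OHT siSMARCA4 2-1VM or 2-3VM, 17 to 19 without 4OHT siNT 4-1VM, 4-3VM or 2-3VM or 4OHT siSMARCA4 4-2VM, and 0 with the sparse repeat covariate (59 at an unadjusted p under 0.05).

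The largest rise without overlap was that of the AluY copy in an intron of TXNRD1 (chr12:104328475-104328780, sense), the gene of a thioredoxin reductase. It had 0, 0.0807 and 0.103 CPM (lowest, median, highest) in 4OHT siNT and 0.188, 0.426 and 0.563 in 4OHT siSMARCA4, while the DMSO siNT libraries held 0.222, 0.205, 0.0356, 0.205 and 0.265. All siSMARCA4 libraries were above all 4OHT siNT libraries, and 4 of the 5 DMSO libraries lay within the siSMARCA4 range. The log2 fold change was 2.38 (SE 0.47). Enough libraries for a test were reached only with 4OHT siSMARCA4, where the copy is high, so no p is given for it. TXNRD1 itself rose by 0.74 (adjusted p = 0.00016 in edgeR).

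FNDC3B, which encodes a membrane protein with fibronectin type III domains, held 2 more of the loci named for their rise. The copy at chr3:172393827-172394133 was at 0, 0.0575 and 0.127 CPM in 4OHT siNT and at 0.225, 0.241 and 0.369 in 4OHT siSMARCA4 (log2 fold change 2.34, SE 0.61). Its call did not survive leaving out any of 7 libraries, with folds of 2.05 to 2.39. Those were 4OHT siNT 2-1VM, 2-3VM and 4-1VM and 4OHT siSMARCA4 2-1VM, 2-3V, 2-3VM and 4-2VM. The copy at chr3:172386461-172386767 was at 0.0362, 0.082 and 0.172 CPM against 0.22, 0.421 and 0.578 (2.13, SE 0.47). Both copies had enough counts for a test only in 4OHT siSMARCA4, where they are high, so no p is given for either. Both lie in the sense of FNDC3B, whose own log2 fold change was 0.45 (adjusted p = 0.00043 in edgeR), and both share any unspliced FNDC3B transcript, so they are not independent of each other.

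The 63-base AluYa5 piece at chr19:57691934-57691996, within an intron of ZNF551 (a zinc finger gene) and of ENSG00000269026, was at 0, 0.0442 and 0.145 CPM against 0.173, 0.269 and 0.489 (2.19, SE 0.49). The AluY copy in NPIPB5 (chr16:22493372-22493669), a gene of a duplicated family whose copies can share reads, was at 0.0858, 0.119 and 0.152 CPM against 0.244, 0.462 and 0.817 (1.98, SE 0.39). Neither locus reached enough libraries for a test without 4OHT siSMARCA4, where both are high, so no p is given for these rises. NPIPB5 itself did not pass (−0.15, adjusted p = 0.552 in edgeR). For the same copy the DMSO siNT libraries were at 0.129, 0.615, 0.125, 0.287 and 0.407 CPM, and 4OHT against DMSO gave −1.38 (adjusted p = 0.017 in edgeR), a call lost without DMSO siNT 2-2V (−0.96, adjusted p = 0.0865).

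Falls without overlap were found at 2 called loci. Of the 556 AluY loci tested, 15 had groups that did not overlap in either direction, and 10 of these were called. The share without overlap among all repeat loci was not counted. The AluYm1 copy at chr17:32097162-32097468, outside genes but 97 bp from the nearest gene, was at 1.09, 1.35 and 1.72 CPM in 4OHT siNT. It was at 0.157, 0.476 and 0.867 in 4OHT siSMARCA4, and at 0.0555, 0.123, 0.214, 0.267 and 0.548 in DMSO siNT. Every 4OHT siNT library was above every library of the other groups. The log2 fold change was −1.50 with siSMARCA4 (SE 0.39, adjusted p = 0.031 in edgeR) and 2.51 with 4OHT (SE 0.45), which both rest on the same 4OHT siNT libraries. Too few DMSO siNT libraries had enough counts for a test, so no p is given for the rise with 4OHT. The fall was past the threshold by little, and leaving out any of 7 libraries (4OHT siNT 2-2VM, 4-2VM or 4-3VM, 4OHT siSMARCA4 2-1VM, 2-3V, 2-3VM or 4-2VM) gave −1.32 to −1.53 with adjusted p of 0.0505 to 0.0731. The AluYk3 copy in DFFA (chr1:10461862-10462157, intron, sense), the gene of the inhibitor of a caspase-activated nuclease, was at 1.03, 1.16 and 1.32 CPM against 0.338, 0.69 and 0.783, and at 1.07, 1.41, 1.28, 1.17 and 1.29 in DMSO siNT. It was lower in every siSMARCA4 library than in every other library (−0.86, SE 0.18, adjusted p = 0.0118 in edgeR), while DFFA was at 0.04 (adjusted p = 0.759 in edgeR).

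The second comparison, 4OHT against DMSO in siNT, asked how AluY RNA differed between senescent cells and uninduced cells. It shares the 4OHT siNT libraries with the first. Pooled AluY counts did not separate the groups. The DMSO siNT libraries were at 386, 623, 450, 409 and 688 CPM (2-1V, 2-2V, 2-2VM, 4-2VM and 4-3VM), which brackets the 4OHT siNT range of 430 to 567. The means were 511 ± 136 (SD, n = 5) and 508 ± 49.6 CPM (n = 6; exact 2-sided permutation test, p = 0.972, adjusted p = 0.994), and none of the 11 pooled measures passed. Intronic AluY was at 370 ± 107 and 364 ± 40.7 CPM. The 2 highest DMSO libraries were also those with the most counts at sparse repeats. Without both, a choice made after the values were seen and so given with no test, the log2 difference was 0.29.

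By subfamily, 3 of the 24 passed the threshold, 1 higher and 2 lower in 4OHT, against 10.1% higher and 6.73% lower of all repeat subfamilies. With the level of sparse repeats as a covariate 8 passed, and the share of all repeat subfamilies that passed in that setting is not given here. Calls without DMSO siNT 2-2V and 4-3VM are not given, since that choice followed the values. The median over the 24 was 0.07 and over the 17 AluS subfamilies, of which edgeR called 0, it was 0.13. AluYa8 rose. It was at 0.646, 1.47, 0.971, 0.774 and 1.68 CPM in DMSO siNT and at 2.09 to 2.95 in 4OHT siNT, so every 4OHT library was above every DMSO library (log2 fold change 1.08, SE 0.22, adjusted p = 0.00145 in edgeR). Few loci carried it. Of the 4 AluYa8 loci that could be tested, 3 rose, all intronic. The 1 in NBPF20 (chr1:145410314-145410612, sense) went from 0.0489 ± 0.0595 to 0.552 ± 0.157 CPM (log2 fold change 3.44, SE 0.70). NBPF20 itself, of a duplicated gene family, was at 0.19 (adjusted p = 0.27 in edgeR). The 1 in ANGPTL4 (chr19:8364780-8364944), which encodes a secreted inhibitor of lipoprotein lipase, went from 0.0453 ± 0.0344 to 0.31 ± 0.139 CPM (2.71, SE 0.57). ANGPTL4 itself rose by 2.77 (adjusted p = 9.38e-10 in edgeR). These AluYa8 loci were chosen after their values were seen. Those in NBPF20 and ANGPTL4 had enough counts for a test only in 4OHT groups, so no p is given for them. Without its most-counted locus, left out after the values were seen and so given with no test, the AluYa8 log2 fold change was 0.75. With libraries of label number 4 alone AluYa8 did not pass (0.81, adjusted p = 0.107 in edgeR).

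AluYd8 fell. It was at 0.646, 0.557, 0.676, 0.639 and 1.29 CPM in DMSO siNT and at 0.341 to 0.534 in 4OHT siNT, with no overlap (−0.92, SE 0.23, adjusted p = 0.00924 in edgeR), and with libraries of label number 2 alone it did not pass (−0.49, adjusted p = 0.24). AluYb8 was called lower as well (−0.72, SE 0.24, adjusted p = 0.0477 in edgeR), but the groups overlapped and the call was lost without any of 6 libraries. The DMSO siNT libraries were at 14.8, 20.8, 18.8, 17.9 and 44.8 CPM against 14.3 ± 1.63 (SD, n = 6, highest 16.8) in 4OHT siNT. The last DMSO value, of 4-3VM, includes the CHRNE intronic copy (chr17:4925240-4925557), where 810 of the 814 counts of all libraries lay in 4-3VM and made up 30.3% of its AluYb8 counts. Without 4-3VM the log2 fold change was −0.34 (adjusted p = 0.224 in edgeR). With all libraries but without the most-counted locus of the subfamily, a choice made after the values were seen, it was −0.54, given with no test. The AluYb8 call was also lost without any of 4OHT siNT 2-1VM, 2-3VM, 4-1VM, 4-2VM and 4-3VM, with folds of −0.67 to −0.77 and adjusted p of 0.0589 to 0.0974.

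Divided by place, 5 of the 62 AluY rows passed, 3 higher and 2 lower, against 8.79% higher and 6.86% lower of all rows. With the sparse repeat covariate 11 passed, and the share of all rows that passed in that setting is not given here. AluYa8 in introns rose by 1.09 (SE 0.24, adjusted p = 0.00325 in edgeR) and AluYd8 in introns was at −1.25 (SE 0.31, adjusted p = 0.00834 in edgeR), both without overlap. AluYh9 in exons gave the largest change, 1.93 (SE 0.33, no overlap). Exons held 27.8% of all AluYh9 counts, and 1 exonic locus alone held 23.9%. The only AluYh9 locus tested, named after its values were seen, lies in an exon of LUCAT1 (chr5:91309481-91309734), a long noncoding RNA gene. It went from 0.0736 ± 0.0551 to 0.389 ± 0.139 CPM (2.38, SE 0.43) while LUCAT1 rose by 3.16 (adjusted p = 8.33e-10 in edgeR). The locus had enough counts for a test only in 4OHT groups. No p is therefore given for it or for the exon row, most of whose counts it holds. AluYm1 outside genes, which held 11.1% of the AluYm1 counts, rose by 0.79 (SE 0.20, adjusted p = 0.00934 in edgeR). Among its loci, the copy at chr17:32097162-32097468 went from 0.241 ± 0.19 to 1.4 ± 0.263 CPM. How much of the rise of the row that copy carried was not tested. AluYb8 in introns was at −0.83 (SE 0.27, adjusted p = 0.0447 in edgeR) and at −0.36 without DMSO siNT 4-3VM (adjusted p = 0.228). It also missed the threshold without any of 4OHT siNT 2-1VM, 2-3VM, 4-1VM, 4-2VM and 4-3VM, with values of −0.74 to −0.83 and adjusted p of 0.0637 to 0.0923.

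Of the 556 AluY loci, 85 rose and 33 fell with 4OHT, against 18.1% higher and 9.33% lower of all repeat loci. Introns held 68 of these 118 (49 higher), exons 15 (13 higher) and the 92 loci outside genes 35 (23 higher). No test of the difference from repeat loci at large was made.

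Rises with 4OHT included 4 loci with no count in any DMSO siNT library, for which the fold is a lower bound that sets the whole DMSO siNT group at 3 counts. They could be tested only through the groups where they are high, so no p is given for them. An AluY in an exon of TNFSF15 (chr9:114786633-114786936), a cytokine of the tumour necrosis factor superfamily, took 253 counts in 4OHT siNT, at 0.0253, 0.772 and 1.81 CPM, which is at least 72.1-fold higher. TNFSF15 rose with it by 10.03 (adjusted p = 5e-11 in edgeR). An AluYk2 antisense in an intron of AADACL2-AS1 (chr3:151788990-151789288) took 130 counts at 0.321, 0.394 and 0.659 CPM, at least 37.1-fold higher. An AluY outside genes at chr1:144523267-144523570 took 129 counts at 0.325, 0.433 and 0.515 CPM, at least 36.8-fold higher.

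Another AluY on that chromosome, at chr1:120355438-120355744 and also outside genes, took 76 counts, at 0.103, 0.24 and 0.47 CPM, at least 21.7-fold higher. This locus and the one at chr1:144523267-144523570 each lie 290 bp from the nearest gene and hold 18 CpG. Whether they are copies that share reads was not tested, so they may not be independent of each other. The fifth, an AluY antisense in an intron of TREH (chr11:118665358-118665660), the trehalase gene, had 1 count in DMSO siNT, in 4-3VM. It had 0.145, 0.265 and 0.472 CPM in 4OHT siNT. The fitted log2 fold change of 5.52 (SE 0.76) rests on that 1 DMSO count. This locus too could be tested only through the groups where it is high, so no p is given for it. TREH itself was at 0.73 (adjusted p = 0.15 in edgeR). With siSMARCA4 the same 5 loci stayed present and ranged widely, for example from 0.175 to 1.9 CPM at TNFSF15 and from 0.0182 to 0.744 CPM at chr1:120355438-120355744.

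The falls with 4OHT were led by an AluYk2 outside genes at chr17:83102586-83102878 (−4.53, SE 0.67). It was at 0.222, 0.246, 0.285, 0.349 and 0.283 CPM in DMSO siNT and at 0 to 0.0362 in 4OHT siNT. An AluYk2 in an intron of ATP8B1, a phospholipid flippase, and of ENSG00000267787 (chr18:57670345-57670648) was at 0.573, 0.881, 0.463, 0.267 and 0.636 CPM against 0 to 0.127 (−3.85, SE 0.55). DMSO libraries were all above 4OHT libraries at both. Both loci had enough counts for a test only in DMSO siNT, where they are high, so no p is given for them.

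The AluY in an intron of KIFC1 (chr6:33408891-33409184, sense), a kinesin of the mitotic spindle, was at 0.222, 0.225, 0.32, 0.308 and 0.371 CPM in DMSO siNT. It was at 0 to 0.0723 in 4OHT siNT (−2.82, SE 0.47). This locus had enough counts for a test only in DMSO siNT, where it is high, so no p is given for it. KIFC1 itself was at −3.08 (adjusted p = 1.7e-10 in edgeR). The AluY in TPGS2 (chr18:36793733-36794040, intron, sense), a subunit of a tubulin polyglutamylase complex, was at 1.02, 1.13, 0.89, 1.11 and 1.86 CPM against 0.151 to 0.355 (−2.16, SE 0.33, adjusted p = 6.44e-05 in edgeR), with TPGS2 at −0.94. The AluYf1 outside genes at chr1:154980524-154980826 was at 0.259, 0.369, 0.409, 0.39 and 0.813 CPM against 0.0542 to 0.185 (−2.06, SE 0.40). Too few 4OHT siNT libraries had enough counts for a test at that locus, so no p is given for it.

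For 346 of the tested loci that lie in exactly 1 tested gene (304 genes), the change of the locus was set beside that of its gene. These correlations are across loci, several of which share a gene and all of which share the libraries, so they are given as a description. In 4OHT against DMSO the log2 fold changes of all 346 loci gave r = 0.66 and rho = 0.47. Without loci that had no counts in a whole group, whose fitted folds are not sizes of change, they gave r = 0.61 and rho = 0.47 over 344 loci, r = 0.88 and rho = 0.69 over 45 exonic loci, and r = 0.52 and rho = 0.44 over 299 intronic loci. Of the 52 called loci, 48 moved in the direction of the gene and for 37 the gene was called the same way, where 54.4% of the 19473 genes were called in either direction. In siSMARCA4 against siNT the loci gave r = 0.10 and rho = 0.10, and r = 0.13 and rho = 0.11 over the 345 with counts in both groups. Of 17 called loci, 12 moved in the direction of the gene, the gene was called the same way for 6, the opposite way for 1, and was not called for 10, where 24.2% of all genes were called. In both comparisons the called loci include some with no p above, such as those in TNFSF15, KIFC1, TREH and FNDC3B. Those had enough counts for a test only where they are high, so the counts of called loci are a description only. With siSMARCA4 the median log2 fold change of the loci was 0.26 and that of the genes −0.03.

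**Figure D5:**
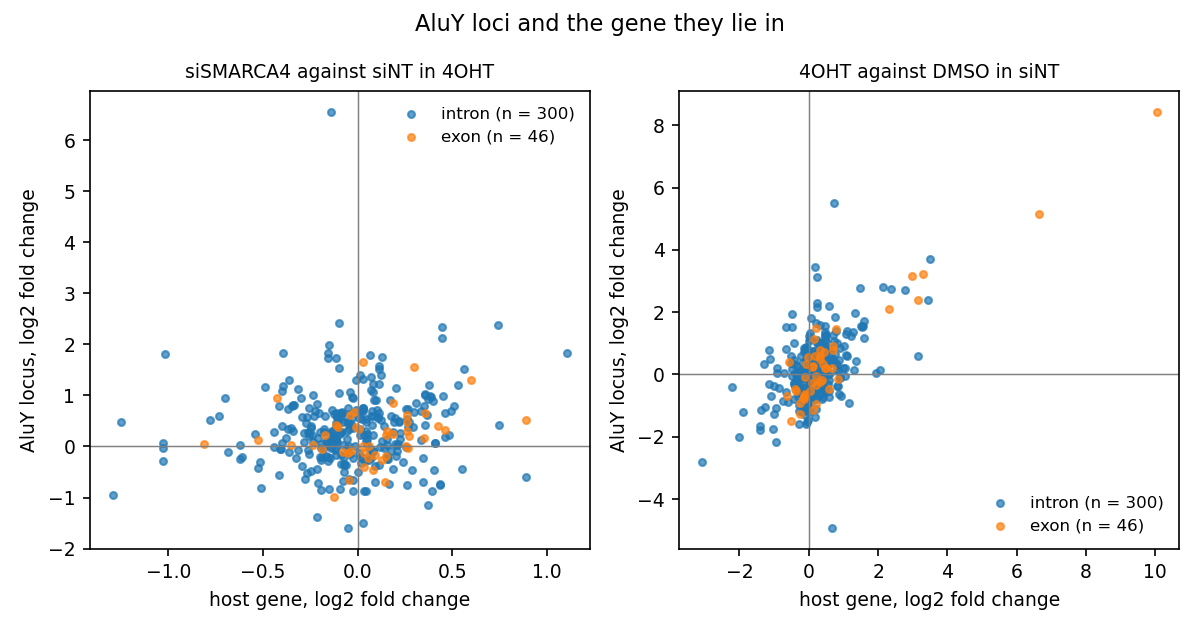
Log2 fold change of an AluY locus (y axis) against that of the gene it lies in (x axis), for siSMARCA4 against siNT in 4OHT (left) and 4OHT against DMSO in siNT (right), with each of 300 intronic and 46 exonic loci as a point. Without loci that had no counts in a whole group, r was 0.61 on the right and 0.13 on the left, and their difference was not tested. The topmost points, in SMURF1 on the left and TNFSF15 on the right, are fitted values against a group with no counts and are not sizes of change.

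The most abundant AluY loci were named by mean CPM alone, whatever their change, so they are not compared with the loci above, named for large changes. An AluYm1 in RPL23A and ENSG00000264577 (chr17:28721964-28722263, intron), where RPL23A is a ribosomal protein gene, was at 2.07, 1.93, 1.98, 1.56 and 4.17 CPM in DMSO siNT, at 2.21 to 4.18 in 4OHT siNT and at 3.26 to 5.92 in 4OHT siSMARCA4. With siSMARCA4 it rose by 0.77 (SE 0.22, adjusted p = 0.0427 in edgeR), and the call was lost without any of 9 libraries, with folds of 0.69 to 0.77 and adjusted p of 0.071 to 0.11. They were 4OHT siNT 2-1VM, 2-3VM, 4-1VM, 4-2VM and 4-3VM and 4OHT siSMARCA4 2-1VM, 2-3V, 2-3VM and 4-2VM.

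Another 3 of the most abundant loci passed in 4OHT against DMSO only by little. The AluYk3 outside genes at chr10:102169696-102169992 (mean 3.47 CPM) rose by 0.81 (adjusted p = 0.0273 in edgeR), and had adjusted p of 0.0552 to 0.0766 without 4OHT siNT 2-2VM (0.65) or without DMSO siNT 2-1V (0.74), 2-2V (0.77) or 2-2VM (0.71). With libraries of label number 4 alone it was at −0.015. The AluY in ZC3H3 (chr8:143454402-143454710, intron, sense; mean 3.31 CPM), a zinc finger protein gene, rose by 0.85 (adjusted p = 0.0402 in edgeR). It was lost without any of 7 libraries, 4OHT siNT 2-2VM, 2-3VM or 4-3VM or DMSO siNT 2-1V, 2-2V, 2-2VM or 4-2VM, with folds of 0.69 to 0.88 and adjusted p of 0.0545 to 0.107, and with label number 4 alone it was at −0.12. The AluY row at chr19:12643097-12644022 (mean 3.18 CPM) is an interval of 926 bases that spans the pseudogene RPL10P16, so its counts need not come from Alu sequence. It was at −0.59 (adjusted p = 0.0312 in edgeR) and at −0.39 without DMSO siNT 2-2V (adjusted p = 0.145), and adjusted p was 0.0566 to 0.0852 without 4OHT siNT 2-1VM, 2-2VM or 2-3VM or DMSO siNT 2-1V or 4-3VM (−0.45 to −0.57).

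Genes that make, bind or sense Alu RNA were read from the same fit. Of 10 core subunits of RNA polymerase III, 0 rose and 1 fell with siSMARCA4 (POLR3GL, −0.54, adjusted p = 0.0139 in edgeR), with a median of −0.10, where 24.2% of all genes were called in either direction. With 4OHT, 4 rose and 3 fell, where 54.4% of all genes were called, and the other lists are to be read against the same shares. Among them POLR3A, the largest catalytic subunit, rose by 0.85 (adjusted p = 1.1e-08 in edgeR), POLR3D by 0.63 and POLR3E by 0.70, while POLR3G, the form of a subunit typical of undifferentiated and tumour cells, was at −1.33 (adjusted p = 2.48e-06 in edgeR) and POLR3B and POLR3C at −0.39 each. Of 10 factors that recruit or repress the polymerase, GTF3C1, the B box-binding subunit of TFIIIC, was at −0.25 with siSMARCA4 (adjusted p = 0.0236 in edgeR, the only call, with 0 higher), and with 4OHT GTF3C1 (0.45), GTF3C4 (0.32) and MAF1 (0.26), the repressor, rose and 0 fell.

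Among 8 proteins that bind or process Alu RNA, HNRNPC, which covers Alu sequence in nascent transcripts, rose with siSMARCA4 by 0.31 (adjusted p = 0.0181 in edgeR) and 0 fell. With 4OHT, 1 rose (STAU1, 0.23) and 2 fell, among them DHX9 (−0.28). Among 6 genes that sense or edit duplex RNA, RIGI rose (0.21, adjusted p = 0.0421 in edgeR) and MAVS was lower (−0.17, adjusted p = 0.0469 in edgeR) with siSMARCA4, and with 4OHT ADAR (0.52, adjusted p = 0.000908 in edgeR) and MAVS (0.18) rose and RIGI fell (−0.31).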

How the data were processed

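Polyadenylated RNA of 17 IMR90 ER:RAS libraries was sequenced by the authors from directional, paired-end libraries. The authors trimmed reads with cutadapt (version 4.7), aligned them to GRCh38 with HISAT2 (version 2.2.1), keeping up to 100 alignments of a read, and assigned them to genes and single RepeatMasker loci with TElocal. The deposited values are expected counts per gene and locus, whole numbers with reads of several loci shared among them, and no column was left unused (0). A count at a young AluY locus can therefore hold reads of its near-identical copies, and the tables carry no repeat strand. The genome and gene annotation used here for place, orientation and sequence were of the same build, but the gene set may be later than the authors' set.

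AluY rows were summed per library (CPM of all counts), per subfamily, and per subfamily and place, where overlap with an exon counts before overlap with an intron. Orientation came from Alu motifs in the reference sequence. Sums and loci with 10 or more counts were fitted with the genes in edgeR 4.0.16 (R 4.3.3; TMM factors, filterByExpr with a minimum count of 10 and a minimum total of 15, glmQLFit and glmQLFTest, 1 term per group over all 17 libraries), with Benjamini-Hochberg adjustment over all subfamilies, rows, loci or genes tested and a threshold of 0.05. Pooled CPM and ratios had exact 2-sided permutation tests, adjusted over 22 tests. The fits were tested on simulated data. Named were all AluY subfamilies, the 5 called loci with the largest rise and the largest fall in each comparison whose groups do not overlap (2 falls for siSMARCA4), the 5 loci with the highest mean CPM, SMARCA4 and the Alu RNA gene list. Some items that these rules name, and the sequences of the loci, are not reported here. The members, gene lists, markers and rules were chosen with earlier results of these data known. Alternatives were DESeq2 1.42.0, other scaling, no filter, subsets of libraries, a covariate and the replicate block.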

Additional observations from a re-analysis of the deposited data

Results flagged for a closer look

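Within groups of 5 or 6 libraries, 167 sets of values were searched for a library whose gap to its nearest neighbour is large against the range of the group (Dixon's criterion at 95%). It picked 17, or 10.2%, where chance gives about 1 in 20, here 8.35. DMSO siNT 4-3VM accounts for 8 of the 17. In that library the ratio of AluY to AluJ was 0.572 against 0.415 to 0.431 in the other DMSO libraries, AluYb8 was at 44.8 CPM against 14.8 to 20.8, AluYd8 at 1.29 against 0.557 to 0.676, and AluYi6 at 10.8 against 4.68 to 6.27. At single loci the same library was highest at the TREH AluY (chr11:118665358-118665660), with 0.0177 CPM, its 1 count, against 0, at the TPGS2 AluY (chr18:36793733-36794040), with 1.86 against 0.89 to 1.13, at the AluYf1 of chr1:154980524-154980826, with 0.813 against 0.259 to 0.409, and at the RPL23A AluYm1 (chr17:28721964-28722263), with 4.17 against 1.56 to 2.07.

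The other picks were spread over 8 libraries. In 4OHT siNT, 2-2VM was high in AluYa8 (2.95 CPM against 2.09 to 2.37) and in AluYb9 (1.55 against 0.746 to 0.999), 2-1VM in AluYi6_4d (0.824 against 0.427 to 0.471), and 4-1VM in AluYk12 (0.351 against 0.0946 to 0.173), while 2-3VM had 0 CPM at the TXNRD1 AluY (chr12:104328475-104328780) against 0.0741 to 0.103. In DMSO siNT, 2-2VM was low at that locus (0.0356 against 0.205 to 0.265) and 2-2V was high at the FNDC3B AluY at chr3:172393827-172394133 (0.0819 against 0 to 0.0205). In 4OHT siSMARCA4, 2-3V was high in AluYf1 (14.6 against 9.46 to 11.4) and 4-3V was low at the DFFA AluYk3 (chr1:10461862-10462157; 0.338 against 0.621 to 0.783).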

How the results depend on the processing

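For siSMARCA4 against siNT in 4OHT, the counts called in the report (7 subfamilies, 9 subfamily-by-place rows, 31 loci) became 0, 0 and 19 with scaling factors from repeat rows alone (4, 8 and 111 at an unadjusted p under 0.05) and 0, 0 and 0 with the sparse repeat covariate (0, 6 and 59). Libraries with label number 2 alone gave 2, 0 and 5 (12, 22 and 143 unadjusted), and those with number 4 alone 0, 0 and 1 (5, 5 and 70). VM libraries alone gave 5 place rows, with all 6 4OHT siNT but 3 siSMARCA4 libraries. The 2 groups compared alone gave 14 subfamilies and 14 place rows. DESeq2 gave 8, 11 and 41. The shares of all repeat subfamilies, rows and loci called under these alternatives are not given here, so these AluY counts cannot be set against repeats at large. Leaving out 1 library gave 4 to 9 subfamilies, 4 to 11 place rows and 10 to 38 loci. The pooled AluY log2 ratio of 0.45 was 0.52 with number 2 alone and 0.37 with number 4 alone, where the exact permutation test gave p = 0.1 each, the smallest that 3 against 3 allows, and 0.37 to 0.51 without 1 library.

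For 4OHT against DMSO in siNT, the counts (3, 5 and 118) became 9 subfamilies and 13 place rows without DMSO siNT 2-2V and 4-3VM, an alternative chosen after seeing the data, and 8 and 11 with the sparse repeat covariate. Number 2 alone gave 1 subfamily, number 4 alone 70 loci, and no filter on low counts 218 loci of 8108 tested. The shares of all repeats called under these alternatives are not given here either. Leaving out 1 library gave 2 to 3 subfamilies, 4 to 6 place rows and 105 to 123 loci. The pooled AluY log2 ratio of −0.01 was 0.29 without both DMSO libraries, given with no test since the choice followed the values, and −0.09 to 0.12 without 1 library. With number 4 alone, the AluYk3 at chr10:102169696-102169992 went to −0.015 and the AluY at chr8:143454402-143454710 to −0.12. The causes of these changes were not tested. Over 49 single subfamilies, rows and loci, 855 of 1098 alternative values kept direction and call, 241 lost the call and 2 changed direction.

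Same-labelled libraries did not all deviate together (r of deviations over genes −0.14 to 0.33 for siSMARCA4 and 4OHT siNT pairs, −0.37 to 0.20 for 4OHT and DMSO siNT pairs). These few pairs cannot show whether such libraries share a culture or a batch, and the main fits did not pair them. With the replicate block the counts were 2 subfamilies, 5 place rows and 12 loci for siSMARCA4 against siNT and 3, 6 and 82 for 4OHT against DMSO, and 33 of 49 single results kept their call. Of 45398 AluY loci with counts, 556 had enough to be tested.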

Other observations

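Among 1685 AluY loci with at least 50 counts, 4 had 90% or more of them in 1 library. Beside the AluYb8 copy in CHRNE, these were an AluY in an intron of LRRC56 (chr11:543751-544047) with 100 of 101 counts in 4OHT siSMARCA4 2-3V, an AluYc outside genes (chr1:44794229-44794510) with 55 of 56 in DMSO siNT 4-3VM, and an AluY in an exon of P4HB (chr17:81847907-81848198) with 53 of 53 in 4OHT siNT 4-1VM. A single locus also carried much of a small subfamily. The AluYi6 copy at chr10:67765095-67765398, outside genes, held 51.5% of all AluYi6 counts, and AluYi6 was the subfamily with the smallest change with siSMARCA4, at 0.09.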
